A study of Mus musculus with 6 samples.

Results

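The cells described here are RENCA cells that carried an empty control vector, 3 of the 6 samples of the series, and the members are the genes they expressed. RENCA is an established line derived from a spontaneous renal cortical adenocarcinoma of a BALB/c mouse, and it serves as a model of renal cell carcinoma in mice with an intact immune system. A gene was counted as detected where it had at least 10 counts in each of the 3 control samples, and 14312 of the 78298 genes in the table met this rule (18.3%). The study asked what overexpression of the water channel AQP1 does to these cells. Its control, oe-NC, received the negative control lentivirus with no AQP1 insert, and the overexpressing group, oe-AQP1, received the same kind of vector with AQP1. Both groups were put under 2 μg/mL puromycin for 14 days, starting 48 hours after transduction, and all samples bear the same batch label. The oe-AQP1 samples entered none of the values below. The control cells are therefore vector-bearing, drug-selected survivors of 1 cell line, the number of founding clones is not stated, and untransduced cells were not analysed here. The labels do not say whether the 3 samples came from separate cultures, so the spread between them may be technical.

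The kidney tubule is lined by polarized epithelial cells, and each segment has its own transporters. Proximal tubule cells, from which clear cell renal carcinoma is thought to arise, take up filtered solutes and proteins and make glucose, whereas the transcription factors that build the tubule, such as PAX2 and PAX8, stay on in much of the mature epithelium and in its tumors. Loss of VHL stabilizes hypoxia-inducible factors in clear cell carcinoma, and tumor cells present antigen on MHC class I and answer interferon through the STAT and IRF factors. The lists used below follow these roles.

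The deposited values were expected counts per gene, and they summed to 19788719.78, 18385714.02 and 21396273.57 in oe-NC samples 1, 2 and 3. At these depths a CPM of 1, on the scale where all counts of a sample add up to 1000000, corresponds to 19.8, 18.4 and 21.4 counts. A count of 0 allows a level of up to 0.152, 0.163 and 0.140 CPM in samples 1 to 3, taking 3 counts as the limit and covering counting error only. Detected genes held 99.8% of the counts in every sample. Levels of different genes are given as TPM, a measure per transcript length that adds up to 1000000 in a sample. TPM was computed here from the rounded counts and the summed exon length of each gene, and ± denotes the SD over the 3 samples. The median level of a gene list and its percentile cover its detected members only.

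Sample 1 stood apart from samples 2 and 3. In tests of pairs of samples, 3776 detected genes differed between samples 1 and 2 beyond counting noise and 4059 between samples 1 and 3, but 165 between samples 2 and 3. A chi-square test over all 3 samples with Benjamini-Hochberg adjustment called 4326 of 14312 genes (30.2%), and sample 1 was the farthest of the 3 in 3545 of them, on the high side in 1997 and on the low side in 1548. Without sample 1 the count was 173. The size of these differences was small for most genes: 20.8% of genes differed by over 1.2-fold between samples 1 and 2, 21.8% between samples 1 and 3 and 11.5% between samples 2 and 3.

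The deviation of sample 1 ran with the GC content of the transcripts. Among protein-coding genes with a mean of at least 100 counts, the median log2 ratio of sample 1 over the mean of samples 2 and 3 was -0.13 in the quintile of lowest GC content and 0.19 in the quintile of highest GC content. The ratio of sample 2 over sample 3 stayed at 0.00 in both of these quintiles. By transcript length the same ratio of sample 1 lay between -0.02 and 0.02 in all 5 quintiles. The part of GC content in the differences of single genes was not tested, except that removing a GC trend from each sample, an alternative chosen after seeing the data, left 2305 genes called. The 13 genes for mitochondrially encoded proteins had a median log2 ratio of -0.31 in sample 1, with 10 below 0. The 3 above 0 were mt-Co2, mt-Co3 and mt-Nd3, which have nuclear copies described below. Summed with Gm28661, Gm28437 and Gm28438 in turn, each was lowest in sample 1. The sums for mt-Co2 were 3746, 4666 and 4763 CPM, and those for mt-Nd3 206, 259 and 261 CPM. The 82 cytosolic ribosomal protein genes had a median of -0.24, with 77 below 0. The median GC content was 37.1% in the first group and 49.4% in the second. All protein-coding genes with a mean of at least 100 counts had a median GC content of 49.3% and a median ratio of 0.01. The ribosomal genes thus lay lower in sample 1 at a GC content near that of all these genes, and the reason was not tested.

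**Figure D1:**
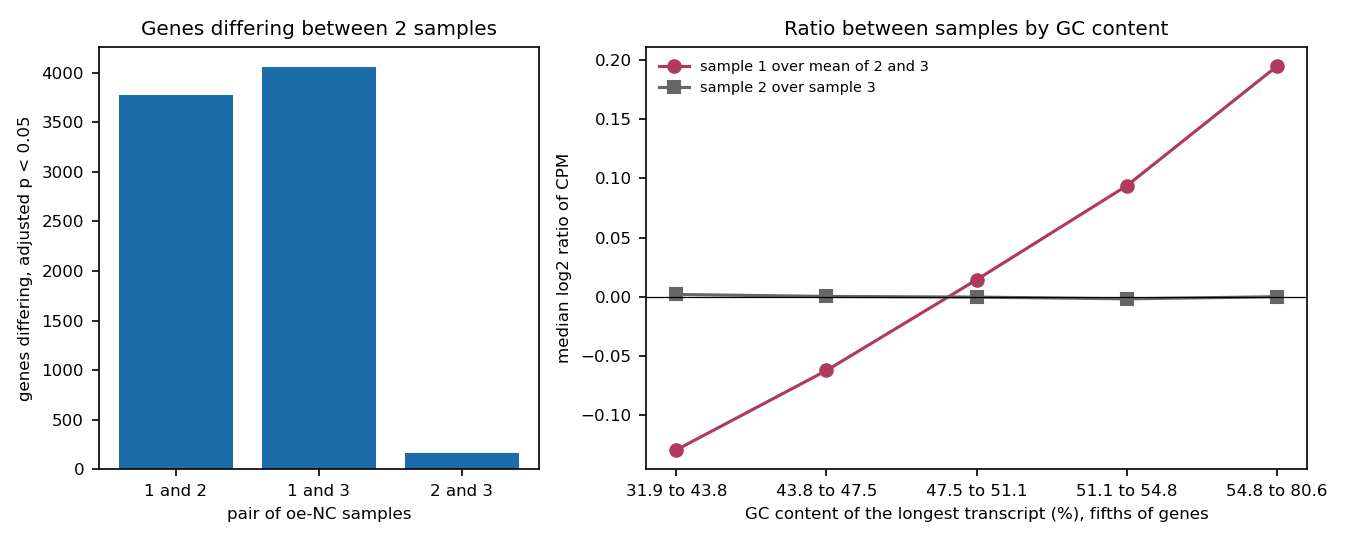
Left, bars give the number of detected genes that differ between each pair of oe-NC samples at an adjusted p under 0.05 (chi-square test). Right, the median log2 ratio of CPM is plotted against quintiles of GC content (%), for sample 1 over the mean of samples 2 and 3 (circles, from -0.13 to 0.19) and for sample 2 over sample 3 (squares, near 0 throughout).

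The coefficient of variation (CV) of CPM over the 3 samples had a median of 7.25%, with 1.54% and 28.3% at the 5th and 95th percentiles. It depended on depth: the median CV was 20.3% for the 937 genes with a mean under 20 counts and 4.81% for the 5009 genes with at least 1000. The biological coefficient of variation that edgeR estimated, which leaves out counting noise, had a median of 7.31%, which was 3.28% without sample 1. Among 10018 protein-coding genes with a mean of at least 100 counts, the 10 of the highest CV were 1810049J17Rik, Commd1b, Derpc, Rnaset2b, mt-Co3, Klf2, Gm14419, Gm2004, mt-Atp6 and Irx3. For 8 of these 10 the deposited counts held fractions, and Klf2 and Irx3 were the exceptions. Among the 8, mt-Co3 and mt-Atp6 have identical nuclear copies that also received counts. Summed with these copies they varied less, at 3294, 4077 and 4042 CPM for mt-Co3 and 2919, 3753 and 3712 CPM for mt-Atp6. Klf2, a zinc finger transcription factor, had 273, 130 and 148 counts, and Irx3, a homeobox factor of the developing nephron, had 510, 232 and 341. Both were highest in sample 1, and both have a GC content above 60%, at 62.1% for Klf2 and 62.3% for Irx3. The 5 most even genes were Zc3hc1, Afg2a, Gmcl1, Mterf4 and Capzb, the last of them with 6098, 5680 and 6579 counts and a CV of 0.103%.

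The detected genes were mainly protein-coding. Detection covered 11498 of 21464 protein-coding genes (53.6%), against 2143 of 32802 lncRNA genes (6.53%), and 48046 genes had no count in any of the 3 samples. The detection limit fell in a continuous range of low counts, with 183 genes whose lowest sample had exactly 10 counts and 224 whose lowest had 9. Gm13483 and Gm41584 lay just inside it, with 10 counts in each sample. Just outside lay Gm49695, with 9 counts in each sample, and Csrnp3, with 10, 9 and 9. The median level of detected protein-coding genes was 23.5 TPM, with quartiles at 9.04 and 53.5 TPM, and that of detected lncRNA genes was 2.97 TPM. Over 100 TPM there were 1469 protein-coding genes, over 1000 TPM there were 77, and 498 lay under 1 TPM. The 10 genes with the most counts held 4.79% of all counts, the first 100 held 15.6% ± 0.338 and the first 1000 held 46.9%.

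The most abundant transcripts served respiration, protein synthesis, iron storage and the cytoskeleton. The highest level of all was that of mt-Co1, the catalytic subunit of cytochrome c oxidase encoded in mitochondria, at 29221, 34374 and 34401 TPM in samples 1 to 3. Next among protein-coding genes came mt-Cytb of respiratory complex III at 15236 ± 1444 TPM, and Ftl1, the ferritin light chain that stores iron, at 10590 ± 447 TPM. The complex I subunits mt-Nd2, mt-Nd1, mt-Nd4 and mt-Nd5 followed at 10200, 6971, 6077 and 4509 TPM, and mt-Atp8 and mt-Nd6 stood at 2844 and 2731 TPM. These mitochondrial genes were lower in sample 1 than in samples 2 and 3, with the exception of mt-Atp8, which was lowest in sample 2. Outside the mitochondria, the translation elongation factors Eef1a1 and Eef2 reached 5051 ± 85.9 and 3490 ± 447 TPM. The ribosomal proteins Rpl8, Rplp1, Rps3a1 and Rpl41 reached 4718, 4195, 3613 and 2790 TPM, and the cytoskeletal genes Tuba1b and Actb reached 3225 and 2911 TPM. The phosphatase gene Ptp4a1 ranked 11th per length, at 5612 TPM, but 1384th by count, since the exons of its entry span only 108 bases. The remaining entries of the first 30 were 7 pseudogenes, 3 lncRNA entries (Gm58349, Gm68527, Gm59619) and protein-coding entries such as Rps18-ps6.

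Many of these genes share sequence with another entry that also received counts. Of the 30 genes with the highest TPM, 21 had counts with fractions and 20 had a counted copy of at least 90% identity over 200 bases or 80% of the transcript. This rule takes in partial matches as well as identical copies. Eef2, with whole counts, matches Sfi1 at 93.1% identity over 26.3% of its transcript, and Actb matches Actg1 at 91.1% over 14.9%. Mitochondrial genes have a block of nuclear copies on chromosome 1 (GRCm39, chr1:24651488-24655278), and mt-Co3, a subunit of cytochrome c oxidase, is identical to Gm28437 over all 783 bases. The first 100 bases of both are printed as an example of the shared sequence. They come from mt-Co3 at chrM:8607-8706, plus strand, and from Gm28437 at chr1:24652953-24653052, minus strand.
mt-Co3 and Gm28437: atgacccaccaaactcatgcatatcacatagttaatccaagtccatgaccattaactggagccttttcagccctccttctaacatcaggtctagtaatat
All letters are in lower case because the 2 genes have no differing base. The nuclear copy received 60956, 72087 and 84666 counts and mt-Co3 received 4235, 2872 and 1813. The same held for mt-Co2, with 4237, 3898 and 4081 counts against 69894, 81894 and 97832 for Gm28661, identical over 681 bases, and for mt-Atp6, with 4737, 10144 and 11439 counts against 53030, 58865 and 67992 for Atp6-ps, identical over 678 bases. Most of the counts of these 3 pairs thus stood under the nuclear entry in every sample, and from which of the 2 loci the reads came was not tested. In the pair mt-Co1 and Gm29216, which aligns to 31.3% of the mitochondrial transcript, mt-Co1 held 94.8%, 95.7% and 95.6% of the joint count.

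**Figure D2:**
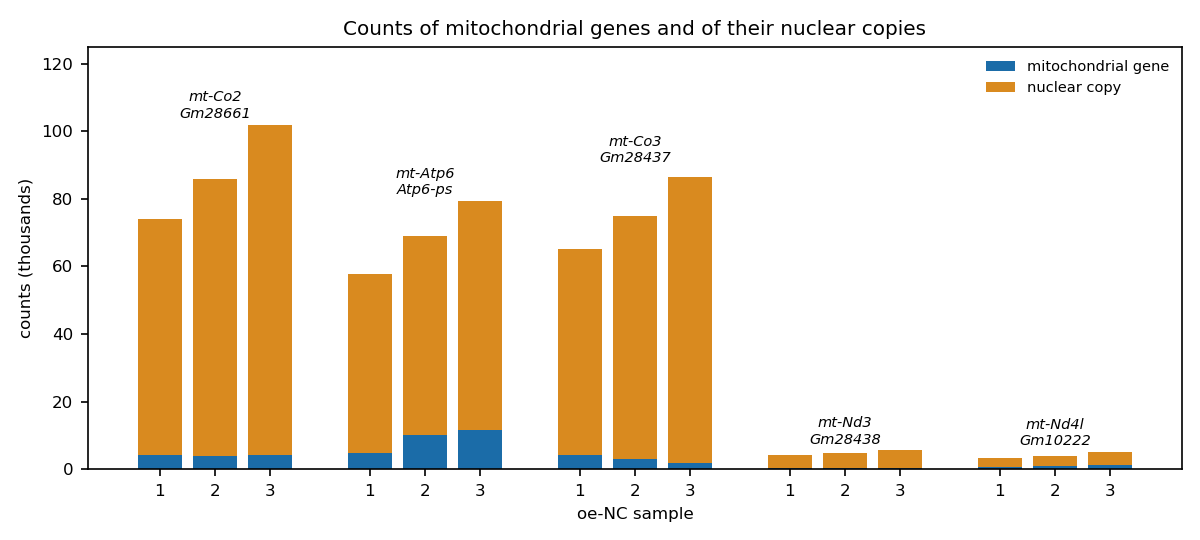
Stacked bars give counts in units of 1000 in each oe-NC sample for 5 mitochondrially encoded genes (lower, blue) and their nuclear copies (upper, orange). For mt-Co2, mt-Atp6 and mt-Co3 the nuclear entry holds most of the joint count in all 3 samples.

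The mitochondrial chromosome held 2.37%, 2.97% and 2.99% of counts in samples 1 to 3, and with its 7 nuclear copies 3.39%, 4.23% and 4.27%. The ribosomal protein genes held 3.77%, 4.23% and 4.32%. Both shares were lowest in sample 1. Gapdh, the glycolytic enzyme often used as a reference, had 17986, 17932 and 20416 counts, and the pseudogene Gm13394, 99.9% identical to it over the aligned stretch, had 21270, 18262 and 22236. Another entry, Gm7336, aligned to Gm13394 with the same identity and had 13891, 12331 and 14676 counts. The level of Gapdh alone, 515 ± 9.21 TPM, is therefore uncertain. For Rps2, Rpl3, Rpl12, Rps12 and Rps18 likewise, the copies Gm58349 and Rps2-ps10, Rpl3-ps1, Gm68527, Gm59619 and Rps18-ps6 were themselves among the 30 highest entries.

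Transcription factors of kidney development were detected in 8 of 13 cases, near the 53.6% of all protein-coding genes. The 8 detected factors had a median of 31.0 TPM, percentile 58.7 of detected protein-coding genes. It fell below that of detected protein-coding genes, to percentile 48.1, with CPM in place of TPM. Over all 13 factors the median was 1.44 TPM. Pax8, which drives nephron formation and stays on in renal epithelium, was the highest, at 99.8, 88.8 and 89.3 TPM. Hoxb7, a marker of the Wolffian duct and ureteric bud, measured 82.4, 74.5 and 77.2 TPM. Pax2, which acts with Pax8 in nephron formation, measured 34.1, 22.6 and 23.7 TPM. These 3 were highest in sample 1, and the counts of Pax8 and Pax2 varied beyond counting noise, with a CV of 20.7% for Pax2. Sall1, a zinc finger factor of nephron progenitors, and Emx2, which is needed for ureteric bud growth, lay at 35.2 ± 4.10 and 25.9 ± 2.32 TPM. Lhx1 was detected at 1.44 TPM, whereas Hnf4a, the master factor of the mature proximal tubule, had 1 count in each sample and the nephron progenitor factor Six2 and the stromal factor Foxd1 had none.

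Of 18 proximal tubule genes 4 passed the detection limit (22.2%, against 53.6% of all protein-coding genes), and none exceeded 10 TPM. The highest was Ggt1, the brush border γ-glutamyl transferase, at 7.35, 7.01 and 7.26 TPM. Lrp2 (megalin) and Cubn (cubilin), the endocytic receptors of the brush border, measured 7.59, 7.21 and 6.39 TPM and 2.28, 2.32 and 2.63 TPM. Aqp1, the water channel of the proximal tubule and the gene whose overexpression the study tested, had 41, 25 and 45 counts (2.80, 1.76 and 2.70 TPM), at percentile 9.38 of detected protein-coding genes. None of these 4 genes varied beyond counting noise. The other 14 lay below the limit, and 7 of them had 0 counts in all 3 samples: Slc22a6, Slc22a8 and Slc22a12 of the organic anion transporter family, the brush border peptidase Anpep, Slc7a9, Kap and Gatm. Slc34a1, the phosphate transporter, had 1 count in sample 2 alone.

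The other nephron segments gave 1 or a few genes each, and their shares are to be read against the 53.6% of all protein-coding genes. In the loop of Henle and distal tubule list 1 of 8 was detected (12.5%), the magnesium channel Trpm6 at 15.2 ± 0.973 TPM, and Umod, which encodes uromodulin, had 0 counts in every sample. In the collecting duct list 3 of 11 were detected (27.3%), the sodium channel subunit Scnn1a at 29.7, 25.1 and 26.5 TPM, the anion exchanger Slc4a1 at 3.44 TPM and the vasopressin-regulated water channel Aqp2 at 1.14 ± 0.294 TPM. The partner subunit Scnn1b had 1 count in all and Scnn1g had 0. Of 6 podocyte genes 4 were detected (66.7%), the actin-binding Synpo at 34.8 ± 5.99 TPM, the sialomucin Podxl at 23.8 ± 1.67 TPM and Wt1 at 8.44 TPM among them. Nphs1, which encodes nephrin and defines the podocyte, had 0 counts. The 3 collecting duct genes and 4 podocyte genes had median levels below that of detected protein-coding genes, at 3.44 and 16.1 TPM.

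Of 9 genes that tubule cells turn on after injury 6 were detected (66.7%, against 53.6% of all protein-coding genes), at a median of 120 TPM (percentile 89.7). Spp1, the matrix protein osteopontin, measured 652, 658 and 648 TPM, and Cd24a, a surface glycoprotein of renal progenitor and tumor cells, measured 316, 340 and 332 TPM. The chaperone Clu lay at 146 ± 13.1 TPM, the iron-binding lipocalin Lcn2 at 94.8 ± 2.89 TPM and Krt20 at 75.9 ± 2.53 TPM. Vcam1 was the lowest at 4.17 TPM. Havcr1, which encodes the injury marker KIM-1, and Sox9, a regulator of tubule repair, had 0 counts in all 3 samples.

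**Figure D3:**
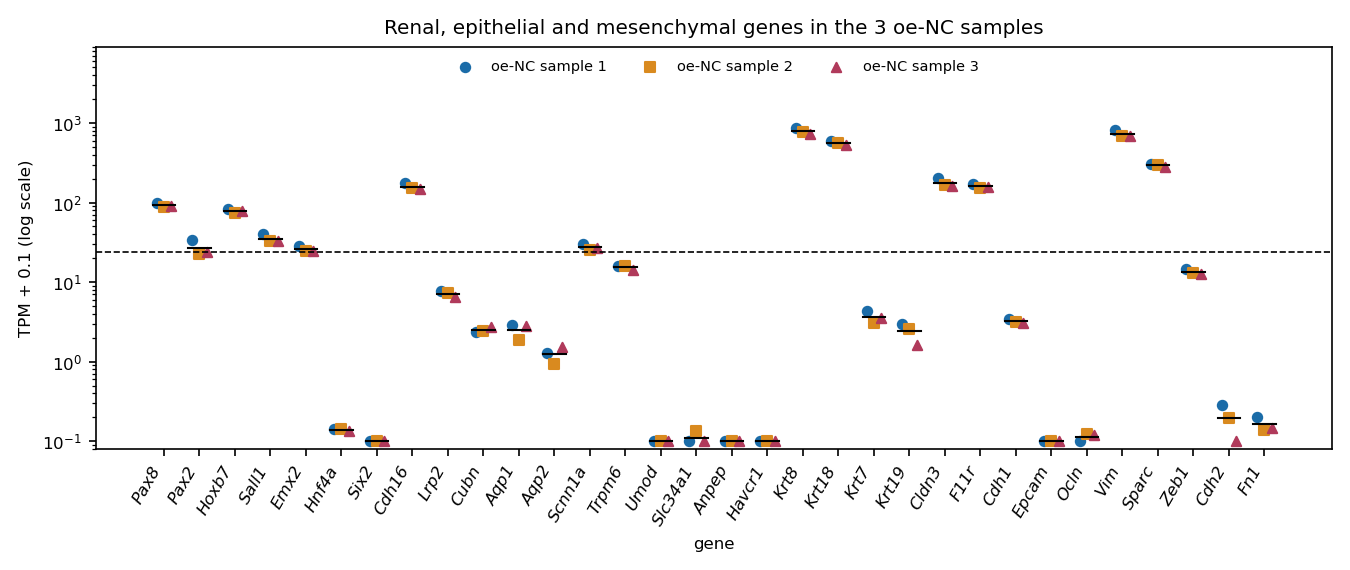
Points give TPM + 0.1 (log scale) in oe-NC samples 1 to 3 for genes of renal, epithelial and mesenchymal identity, horizontal bars the mean, and the dashed line the median of detected protein-coding genes (23.5 TPM). Pax8, Cdh16, Krt8, Krt18 and Vim lie above the line in all 3 samples, and Umod, Havcr1, Anpep, Six2 and Epcam lie at 0.

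Genes of renal carcinoma and of the hypoxia response were detected in 21 of 23 cases (91.3%, against 53.6% of all protein-coding genes), with a median of 47.1 TPM. Vegfa, the angiogenic factor induced by hypoxia, measured 441, 343 and 331 TPM, highest in sample 1 and beyond counting noise. The tumor suppressor locus Cdkn2a measured 431, 428 and 420 TPM, and the neighboring Cdkn2b 18.0 ± 1.09 TPM. Hif1a, the oxygen-labile subunit of the hypoxia-inducible factor, stood at 148 ± 6.36 TPM, and its targets Bnip3 and Adm, a mitophagy receptor and a vasodilator peptide, at 146 ± 3.36 and 111 ± 13.7 TPM. Vhl, whose product marks that subunit for degradation, was transcribed at 46.6, 48.1 and 46.4 TPM. Epas1, which encodes HIF-2α, had 0 counts in all 3 samples, and Car9, a target used as a marker of clear cell carcinoma, lay at 1.22 ± 0.220 TPM. The prolyl hydroxylase gene Egln3 missed the limit with 9, 7 and 9 counts, whereas Egln1 reached 42.4 TPM. The chromatin genes Pbrm1, Bap1, Setd2 and Kdm5c, which are mutated in human clear cell carcinoma, lay between 31.0 TPM (Setd2) and 76.6 TPM (Bap1).

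All 5 simple epithelial keratins were detected, against 53.6% of all protein-coding genes, and the pair that forms the filament of simple epithelia led them, with Krt8 at 861, 763 and 735 TPM and Krt18 at 593, 555 and 529 TPM. Krt7 and Krt19, keratins of ducts, were low at 3.52 and 2.29 TPM. Of 24 junction and adhesion genes 17 were detected (70.8%, against 53.6% of all protein-coding genes), with a median of 30.8 TPM. Among cell contact genes, the tight junction members Cldn3 and F11r measured 177 ± 22.9 and 159 ± 9.56 TPM, and Jup, which encodes plakoglobin, measured 114 ± 11.7 TPM. Cdh16, which encodes the kidney-specific cadherin, reached 173, 152 and 148 TPM. Cdh1, which encodes E-cadherin, had 77, 67 and 78 counts, or 3.38, 3.03 and 3.00 TPM. Per length the mean of Cdh16 (158 TPM) thus stood far above that of Cdh1 (3.14 TPM) in all 3 samples. Epcam and the desmosomal cadherin Dsc2 had 0 counts in every sample, and Dsp, Ocln and Dsg2 had at most 2 in any sample. Of 10 epithelial regulators 5 were detected, near the 53.6% of all protein-coding genes, led by the ETS factor Elf3 at 16.3 TPM, the splicing factor Esrp2 at 6.66 TPM, Klf5 at 5.26 TPM and Grhl1 at 2.37 TPM, with Esrp1 lowest at 1.08 TPM.

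Mesenchymal genes were detected in 13 of 23 cases (56.5%, against 53.6% of all protein-coding genes), with a median of 45.7 TPM (percentile 70.6). Vim, the intermediate filament vimentin, measured 806, 685 and 682 TPM, per length below Krt8 in each of the 3 samples. By counts the order turned, with 18813, 15509 and 18161 for Vim against 8279, 7121 and 8068 for Krt8. The integrin subunit Itgb1 lay at 496 ± 14.1 TPM and the matrix protein gene Sparc at 293 ± 10.5 TPM. Among the repressors of E-cadherin, Snai1 measured 42.3 ± 6.91 TPM, Zeb1 14.4, 12.9 and 12.7 TPM and Zeb2 5.46 TPM. All 3 were highest in sample 1, although of them only the counts of Snai1 varied beyond counting noise. Snai2, Twist1 and Prrx1 had 0 counts in all samples, and the mesenchymal cadherin Cdh2 and fibronectin (Fn1) had 8, 4 and 0 and 8, 3 and 4 counts.

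Metabolic genes were mostly above the median level, and glycolysis stood high. Of 21 genes of glucose uptake and glycolysis 18 were detected (85.7%, against 53.6% of all protein-coding genes), with a median of 128 TPM (percentile 90.5). Over 100 TPM lay 11 of the 18, against 1469 of the 11498 detected protein-coding genes. The ATP-forming kinase Pgk1 measured 1296, 1313 and 1281 TPM, Pgam1 1166, 1118 and 1119 TPM and Ldha, the lactate dehydrogenase subunit that favors lactate, 804, 768 and 777 TPM. Their CVs were 2.84%, 0.835% and 1.37%, and of the 3 the counts of Pgk1 varied beyond counting noise, as did those of 11 of the 18 detected genes (61.1%, against 30.2% of all detected genes and 54.9% of those with at least 1000 counts). Tpi1 lay at 729 ± 47.4 TPM, the glucose transporter Slc2a1 at 82.0 ± 6.03 TPM and the kinase Pdk1, which inhibits pyruvate dehydrogenase, was the lowest detected at 16.03 TPM. Ldhb, the other lactate dehydrogenase subunit, had 0 counts in every sample. The lactate carrier Slc16a1 reached 195, 197 and 186 TPM, whereas its relative Slc16a3 had 5, 7 and 3 counts.

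For gluconeogenesis, a task of the proximal tubule, 4 of 7 genes were detected (57.1%, against 53.6% of all protein-coding genes), at percentile 38.7. The mitochondrial carboxykinase Pck2 measured 110, 93.2 and 91.3 TPM and the pyruvate carboxylase Pcx 28.9 ± 5.82 TPM. Pck1 lay at 3.50 TPM and Fbp2 at 1.76 TPM, and Fbp1, the kidney and liver form, had 0 counts. The citrate cycle was complete, with all 16 genes detected, against the same 53.6%, at a median of 75.1 TPM and Sucla2 the lowest at 28.4 TPM. Abundant members were Mdh2 at 331 ± 28.0, Cs at 284 ± 6.21 and Idh3b at 143 ± 2.09 TPM.

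Of the lipid genes 18 of 22 were detected for fatty acids (81.8%), at a median of 63.4 TPM, and 16 of 17 for cholesterol (94.1%), at 54.1 TPM, against 53.6% of all protein-coding genes. The desaturases Scd2 and Scd1 measured 436 ± 16.8 and 171 ± 3.81 TPM, and Plin2, which coats the lipid droplets typical of clear cell carcinoma, measured 399, 366 and 377 TPM. The oxidation enzyme Acadl lay at 246 ± 3.81 TPM and Hadhb was the lowest at 15.6 TPM. The nuclear receptors Ppara and Pparg had 0 counts in all samples. In the cholesterol list Fdps led at 261 ± 9.76 TPM, followed by the regulator Srebf2 at 237 ± 29.5, Idi1 at 115 ± 6.13 and Sqle at 112 ± 5.82 TPM. The kinase Mvk was the lowest detected at 7.94 TPM.

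Serine synthesis and amino acid uptake formed one of the most abundant metabolic lists, with 14 of 15 genes detected (93.3%) and a median of 214 TPM (percentile 94.9). The share detected among all protein-coding genes, 53.6%, is also the one to set beside the next 2 lists. Phgdh, the first enzyme of serine synthesis, measured 2596, 2259 and 2200 TPM and was 40th of all genes per length. The mitochondrial hydroxymethyltransferase Shmt2 measured 749, 627 and 636 TPM, and the leucine carrier Slc7a5 measured 633, 529 and 522 TPM. All 3 were highest in sample 1. The glutamine carrier Slc38a2 lay at 495 ± 12.1 TPM, and Asl was the lowest at 12.8 TPM. Ass1, which makes argininosuccinate in the proximal tubule, had 0 counts in every sample. All 22 genes of the pentose phosphate pathway and antioxidant defense were detected at a median of 105 TPM, led by the lipid hydroperoxide reductase Gpx4 at 1184, 1196 and 1178 TPM, then Taldo1 at 450, Gpx1 at 423 and thioredoxin (Txn1) at 398 TPM. The cystine carrier Slc7a11 was the lowest at 6.27 TPM. Cell cycle genes were detected in 23 of 23 cases at a median of 165 TPM, with cyclin D1 (Ccnd1) at 886, 831 and 817 TPM, Pcna at 660, Myc at 342 and Rrm2 at 335 TPM, and Tyms lowest at 30.9 TPM.

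**Figure D4:**
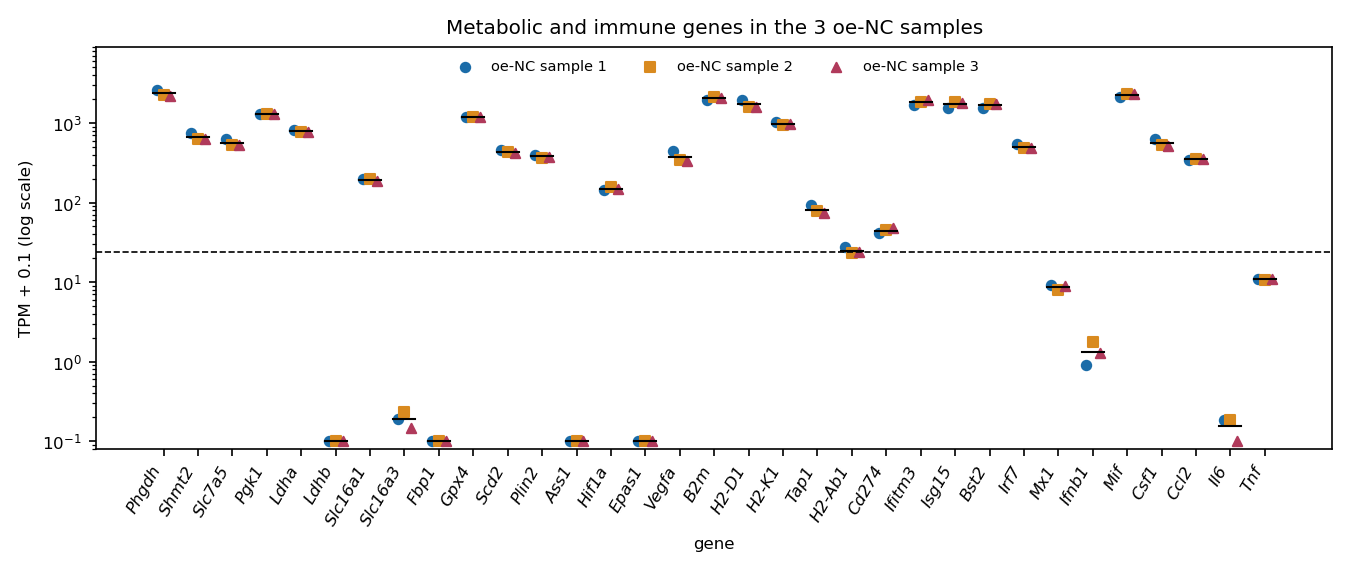
Points give TPM + 0.1 (log scale) in oe-NC samples 1 to 3 for metabolic, hypoxia and immune genes, horizontal bars the mean, and the dashed line the median of detected protein-coding genes (23.5 TPM). Phgdh, B2m, H2-D1, Ifitm3, Isg15, Bst2 and Mif lie above 1000 TPM, and Ldhb, Fbp1, Ass1 and Epas1 lie at 0.

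Among the immune lists antigen presentation on MHC class I had the highest median, with all 14 measured genes detected, against 53.6% of all protein-coding genes, at a median of 166 TPM (percentile 92.96). The light chain B2m measured 1951, 2126 and 2064 TPM. The heavy chains H2-D1 and H2-K1 measured 1968, 1591 and 1606 TPM and 1027, 947 and 974 TPM. B2m was lowest and both heavy chains highest in sample 1, and H2-D1 and H2-K1 had counts with fractions. The chaperone Calr lay at 946 ± 43.7 TPM, the peptide transporter Tap1 at 91.8, 77.0 and 72.9 TPM and the class I transactivator Nlrc5 lowest at 19.7 TPM. Of 7 class II genes 3 were detected (42.9%, near the same 53.6%), the invariant chain Cd74 at 55.8 ± 1.97, H2-Ab1 at 24.8 ± 2.65 and H2-DMa at 11.3 TPM. The partner chain H2-Aa had 6, 6 and 9 counts and the class II transactivator Ciita had 1, 2 and 6, both below the limit.

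Of 15 ligands that restrain or support T cells and NK cells 9 were detected (60%, near the 53.6% of all protein-coding genes). Galectin-9 (Lgals9) measured 408, 401 and 393 TPM, and Nectin2 and Pvr, ligands shared by TIGIT and CD226, measured 73.2 ± 11.2 and 61.2 ± 0.621 TPM. Cd274, which encodes PD-L1, measured 41.1, 44.4 and 47.1 TPM, varied beyond counting noise and was lowest in sample 1. Cd276 was the lowest detected at 5.03 TPM, and Cd80, Cd86 and Pdcd1lg2 lay below the limit with at most 5 counts in any sample.

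Of 31 cytokine and chemokine genes 19 were detected (61.3%, near the 53.6% of all protein-coding genes), with a median of 13.7 TPM (percentile 34.1), yet a few were abundant. Mif, the macrophage migration inhibitory factor, measured 2108, 2293 and 2282 TPM. The macrophage growth factor Csf1 measured 637, 526 and 514 TPM, and the monocyte chemokine Ccl2 337, 350 and 356 TPM. Sample 1 was the lowest for Mif and Ccl2 and the highest for Csf1. Tgfb3 lay at 79.4 ± 7.61 TPM, ahead of Tgfb1 at 15.1 TPM. Tnf was detected at a low, even level of 10.8, 10.6 and 10.9 TPM, and Cxcl9 was the lowest detected at 2.48 TPM. Il6 had 1, 1 and 0 counts, and the interferon gene Ifnb1 had 3, 6 and 5, below the limit. All 22 receptors and signal transducers of interferon and inflammation were detected, against the same 53.6%, at a median of 36.1 TPM, led by Ifngr1 at 227 ± 2.08, Ltbr at 181 ± 26.1 and Tnfrsf1a, the main TNF receptor, at 106 ± 9.46 TPM. Both chains of the type I interferon receptor were present, Ifnar1 at 30.5 and Ifnar2 at 58.6 TPM, and Fas was the lowest at 1.25 TPM.

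Interferon-stimulated genes were detected in 26 of 26 cases, against 53.6% of all protein-coding genes, with a median of 81.6 TPM (percentile 84.0). Counts held fractions for 14 of the 26, Ifitm3 among them. The viral entry inhibitor Ifitm3 measured 1666, 1855 and 1943 TPM. The ubiquitin-like modifier Isg15 measured 1559, 1842 and 1784 TPM, and tetherin (Bst2), which holds budding virus at the cell surface, measured 1559, 1745 and 1740 TPM. All 3 were lowest in sample 1, and their counts varied beyond counting noise. Ifitm2 followed at 670 ± 66.3 TPM and the transcription factor Irf7 at 539, 490 and 484 TPM. Levels within the list spread widely, down to Mx1 at 8.58 ± 0.719 TPM. The whole list held 0.382%, 0.413% and 0.417% of counts in samples 1 to 3. Since all samples had been transduced and selected, how these levels compare with cells that carry no vector was not tested.

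The promoters of many of these genes carry the interferon-stimulated response element. It was searched as a pair of GAAA half-sites separated by any 2 bases, on both strands, in RefSeq promoters (GRCm38.p6, 250 bases before to 50 bases after the transcription start), and overlapping matches were counted. A match stood in 13 of the 20 genes of the list that have a promoter there (65%), against 1079 of 27025 genes in all (3.99%) and 3.76% of 9005 detected protein-coding genes. The 13 were Isg15, Ifit1, Ifit3, Oas1a, Rsad2, Bst2, Ifitm2, Ifitm3, Gbp2, Gbp3, Igtp, Rigi (under its older symbol) and Ifih1. The promoters of Isg15 at chr4:156200769-156201068 and Bst2 at chr8:71537423-71537722, both on the minus strand, are printed as examples from the most abundant members, with matched bases in capitals.
Isg15: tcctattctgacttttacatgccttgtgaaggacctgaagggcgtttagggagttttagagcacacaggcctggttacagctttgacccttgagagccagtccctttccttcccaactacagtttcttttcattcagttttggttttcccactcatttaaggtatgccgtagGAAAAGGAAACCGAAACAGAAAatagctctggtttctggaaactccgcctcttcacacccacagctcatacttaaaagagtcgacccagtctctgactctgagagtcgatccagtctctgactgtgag
Bst2: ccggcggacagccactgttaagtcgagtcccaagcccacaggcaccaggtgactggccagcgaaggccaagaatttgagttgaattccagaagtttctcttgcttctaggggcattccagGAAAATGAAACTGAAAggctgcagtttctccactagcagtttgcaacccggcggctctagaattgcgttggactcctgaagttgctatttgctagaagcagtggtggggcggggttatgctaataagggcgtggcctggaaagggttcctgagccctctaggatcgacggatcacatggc
The Isg15 promoter holds 3 overlapping matches that begin 78 bases before the start, and that of Bst2 holds 2 that begin 130 bases before it. A match is a description of the sequence and not a measured binding site. In the serine and amino acid list, the amino acid response element TGATGNAA stood in 1 of 11 promoters, that of Asns, against 4.51% of all genes.

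Complement genes were detected in 8 of 11 cases (72.7%, against 53.6% of all protein-coding genes) at a median of 11.3 TPM, led by C3 at 111 ± 10.2, C1ra at 89.9 ± 5.85, C1s1 at 59.7 ± 1.61 and Cd59a at 13.3 TPM, with Cd46 lowest at 0.846 TPM.

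The lists of markers of other cell types had between 11.1% and 37.5% of their genes detected, against 53.6% of all protein-coding genes. Of 12 macrophage and leukocyte markers 4 were detected, with a summed level of 144, 141 and 136 TPM. Cd68, a lysosomal protein that is not restricted to macrophages, made up most of it at 86.7, 88.3 and 84.7 TPM, followed by Cd14 at 28.8, Lyz2 at 19.9 and Csf1r at 4.97 TPM. The pan-leukocyte marker Ptprc had 0, 1 and 1 counts, and Adgre1, Tyrobp, C1qa and Mrc1 had 0 in all samples. Of 9 lymphocyte markers the B cell gene Cd79a alone was detected, at 2.86 ± 0.589 TPM, and the T cell marker Cd3e had 0, 1 and 2 counts. Of 8 endothelial markers 3 were detected, at 1.99 (Egfl7), 0.439 (Pecam1) and 0.203 TPM (Vwf), while Kdr and Emcn had 0 counts. Of 10 fibroblast and mural markers 3 were detected, Pdgfrb at 17.0 ± 1.98, Col1a1 at 15.8, 11.5 and 10.2 TPM and Col1a2 at 0.231 TPM, while Pdgfra, Dcn, Thy1 and Rgs5 had 0 counts. In bulk samples, few cells of a type and little RNA per cell cannot be told apart.

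Of the sex chromosome genes, Xist had 2 counts in each sample and Ddx3y, Eif2s3y and Uty on the Y chromosome had 0. Kdm5d, also on the Y chromosome, had 14, 23 and 21 counts with fractions. It shares stretches of 90.3% to 92.7% identity with Smc1a, Nopchap1 and Ap2a2 on other chromosomes. These stretches cover 396 to 403 bases, or 4.96% to 5.05% of its transcript, and from which locus its reads came was not tested.

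Across the 32 lists, 20 had a median of detected members above that of detected protein-coding genes. Leaving out any 1 sample moved no list across that line and no list's percentile by over 2.59 points. With undetected members included, several of the 20 medians fell below 23.5 TPM. They were 1.44 TPM for renal transcription factors, 13.7 for junction genes, 13.4 for mesenchymal genes and 8.83 for T cell and NK cell ligands. They were also 0.317 for MHC class II and 0.0789 for macrophage and leukocyte markers. The other lists of the 20 stayed above it. The calls for spread rest on sample 1, since 4326 genes were called with it and 173 without it. Members that varied beyond counting noise numbered 12 of 13 for mitochondrially encoded proteins, 10 of 14 for MHC class I, 13 of 23 for proliferation and 9 of 14 for serine and amino acid supply. Among all detected genes 30.2% were called, and 54.9% of those with at least 1000 counts. Counts held fractions for 7, 7, 9 and 3 detected members of these 4 lists in turn, and the part of divided reads in the calls was not tested. Fewer calls were found for the citrate cycle, with 4 of 16, for the receptors of interferon and inflammation, with 5 of 22, and for the simple epithelial keratins, with 1 of 5. Of the 26 interferon-stimulated genes 8 were called, and of the 8 renal transcription factors 4.

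**Figure D5:**
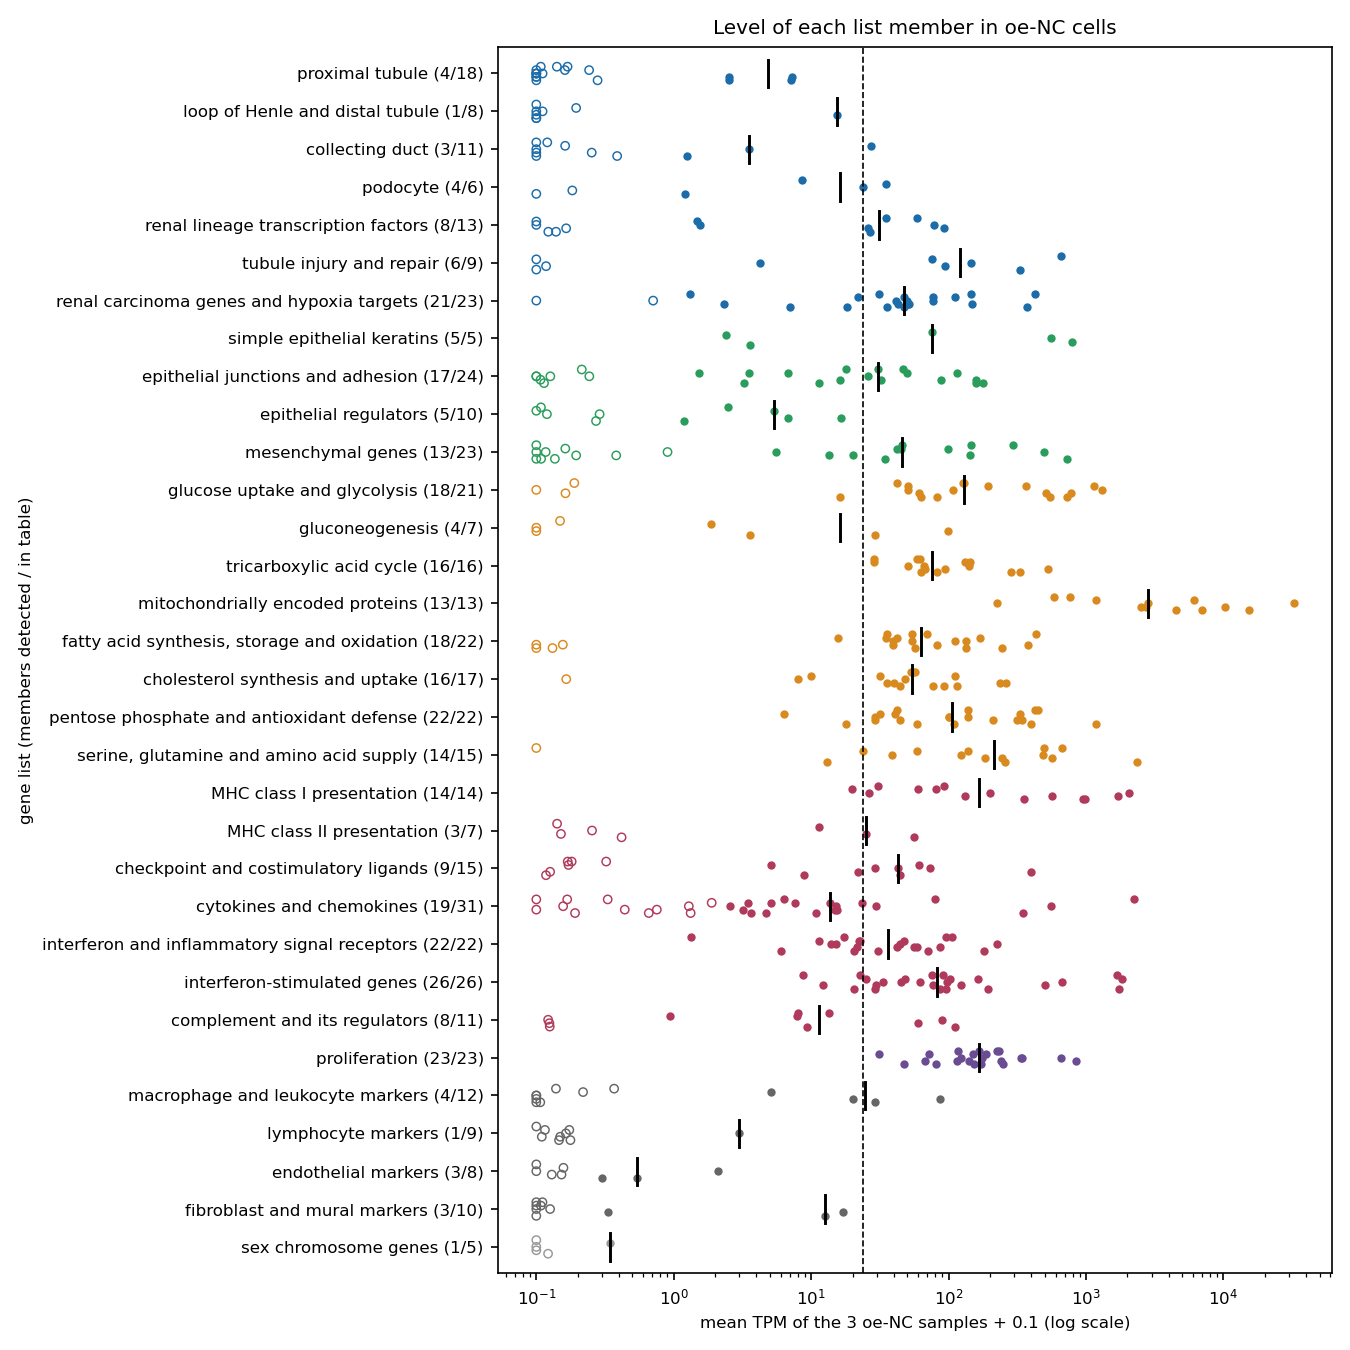
Each point is 1 gene at its mean TPM + 0.1 over the 3 oe-NC samples (log scale), in rows by gene list, where filled points were detected and open points were not, black ticks mark the median of detected members, and the dashed line is the median of detected protein-coding genes (23.5 TPM). The lists for mitochondrially encoded proteins, serine and amino acid supply, MHC class I and proliferation have the highest medians, and most proximal tubule, loop and collecting duct genes lie at or near 0.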

How the data were processed

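RNA from RENCA cells was sequenced from TruSeq libraries. The authors deposited expected counts per gene, unscaled, with group means of oe-NC and oe-AQP1 samples, which were not used here, and gene annotation. The submitters' processing notes list fastp, HISAT2, Subread and featureCounts (versions not given in the sources used here) and the builds GRCm38 and mm10, whereas the methods of the study name GRCm39. Gene identifiers matched GENCODE M39 (GRCm39) for 78168 of 78298 genes, and names, lengths and positions came from it. Of the detected genes 671 had no deposited symbol, and 6144 (42.9%) had a count over 1e-09 away from a whole number. Fractions can arise where a counter divides reads among genes, but whether the listed tools were run in that way is not given in the sources used here.

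Counts were rounded to whole numbers. TPM used the union of exons per gene, and TPM of genes with long untranslated or rarely used exons is understated. TMM factors came from edgeR 4.0.16 in R 4.3.3 and were 1.00, 1.00 and 0.999. Spread beyond counting noise was tested per detected gene by a chi-square test of homogeneity over the 3 samples (adjusted p under 0.05, Benjamini-Hochberg over 14312 genes). The test treats each count as whole reads, which the 42.9% of detected genes with fractions do not meet. For those genes a call may also reflect how reads were divided among entries, which was not tested. The biological coefficient of variation came from an intercept-only edgeR model. DESeq2 1.42.0 served as an alternative for size factors and dispersions. For the chi-square test, counts with counting noise alone (Poisson) were simulated, and 14097 genes were tested. In sample 1 only, 200 genes with a mean of at least 100 counts were changed. Of those changed by 1.5-fold 98% were recovered and of those changed by 2-fold 100%, and 5 unchanged genes were called. The simulation does not cover changes in genes of lower counts. Nor does it cover false calls among counts that hold fractions or vary beyond counting noise. Copies were found with blastn 2.17.0. No test compared groups.

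The members, the 32 lists and the tests were chosen with earlier results of these data known. Genes were named by rule: the 30 highest by TPM, the 4 highest and the lowest of each list, markers that define a cell type, the 10 highest and 5 lowest CVs among protein-coding genes with a mean of at least 100 counts, and the 2 genes on either side of the detection limit. List members named for other reasons, most of those at or near 0 among them, the near-copies and the genes of the closing section were chosen after their values were seen. H2-L was not found in the table, and Ddx58, listed beside its newer symbol Rigi, was counted under Rigi. Some genes that the rule covers are not reported here.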

Additional observations from a re-analysis of the deposited data

How the results depend on the processing

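Between 12895 and 15947 genes were detected under the other count minimums and sample rules. The share of counts in the 100 most abundant genes, 15.6%, was 13.9% without mitochondrially encoded genes and 34.7% as a share of TPM. The 4326 genes that varied beyond counting noise became between 173 and 4039 when 1 sample was left out, 173 without sample 1, and 2305 after a GC trend was removed, an alternative chosen after seeing the data. Other scalings, count minimums and a threshold of 0.01 gave between 3192 and 4336. The median biological coefficient of variation, 7.31%, lay between 3.28% and 8.61% when 1 sample was left out, 3.28% without sample 1, and was 20.5% when genes with at least 1 count in total were kept. Of the 32 lists, 20 had a median of detected members above that of detected protein-coding genes. The number was 19 with the length of the longest transcript and 16 with CPM. With CPM the renal transcription factors moved from percentile 58.7 to 48.1 and the keratins from 82.5 to 48.1, MHC class II from 51.8 to 26.6 and macrophage markers from 51.2 to 24.95, and with the longest transcript macrophage markers moved to 41.1. Of 160 counts of detected members under the alternatives, 157 stayed within 1.5 times, and the exceptions were lymphocyte, endothelial and sex chromosome genes at a minimum of 20 counts. No paired analysis was possible because all samples belong to 1 group. Depth limits calls near 10 counts.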

Other observations

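By the annotation deposited with the counts, 130 of 290 genes for sequence-specific transcription factors of RNA polymerase II were detected (44.8%, against 53.6% of all protein-coding genes). Atf4, the effector of the integrated stress response, was the highest of them, with 23983, 21825 and 25848 counts and 1976 ± 69.8 TPM. Its relative Atf5 followed at 1173 ± 227 TPM, then Cebpb at 815 ± 317 and Jund at 811 ± 254 TPM. Atf5, Cebpb and Jund had their highest counts in sample 1 (15165, 8711 and 9040) although that library was not the deepest, and the counts of Atf4 did not pass the test for spread beyond counting noise. Of 1499 genes annotated to the extracellular space 517 were detected (34.5%, against the same 53.6%). The lysosomal protein precursor Psap led at 2434 ± 101.1 TPM, and the cathepsin Ctsd at 1662 ± 135, the stress-induced cytokine Gdf15 at 1570 ± 262 and galectin-1 (Lgals1) at 1488 ± 87.8 TPM were also among the 6 highest. Gdf15 was highest in sample 1, with 20817 counts against 15223 and 18073.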
